A study of Homo sapiens with 12 samples.

Results

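The anterior HOXD genes HOXD1, HOXD3, HOXD4 and HOXD8 lie at the 3′ end of the HOXD cluster on chromosome 2 and were followed per transcript and per gene in 12 RNA libraries. They are 4 of the 35810 genes summed from the deposited transcript tables, and 3 of the 4 passed the filter on low counts that left 12821 genes for testing. HOXD8 had no reads in any library. The genes were selected on their measured fold change with sorafenib in these same libraries, so their levels and fold changes are given as a description, with standard errors but no p-values.

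The libraries were made from polyadenylated RNA of HepG2, an established human line from a liver tumour. The 4 groups were ARID1B-KO cells given 5 µM sorafenib for 48 h, ARID1B-KO cells given DMSO vehicle at 0.1% by volume, WT cells given sorafenib and WT cells given DMSO, with 3 libraries in each. ARID1B belongs to the canonical BAF (SWI/SNF) nucleosome remodellers, which it helps to tether to DNA. Sorafenib is a liver cancer drug that blocks RAF and several receptor tyrosine kinases. The knockout was made with CRISPR/Cas9, and no source read here says how many clones the 3 knockout libraries came from. The design text calls the replicates biological. Libraries held 19739582 to 29398257 estimated counts, and mitochondrial transcripts took 6.55% to 11.92% of them. ARID1B was at 35.6, 25.9 and 26.5 CPM (counts per 1000000 of the TMM library size) in ARID1B-KO cells with sorafenib, against 67.5, 69.1 and 62.3 CPM in WT cells with sorafenib. In DMSO it was at 26.4, 28.0 and 27.6 CPM in ARID1B-KO cells, against 58.4, 61.9 and 66.7 CPM in WT cells, a log2 fold change of -1.19 ± 0.11 (SE, adjusted p = 7.44e-06, edgeR quasi-likelihood test). All 12 hepatocyte markers listed for the check of the cell line, among them ALB, AFP and APOA1, passed the filter.

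HOX genes encode homeodomain transcription factors that give cells their position along the body axis. Within a cluster they are switched on in order, from the anterior genes at the 3′ end to the posterior genes at the 5′ end, and retinoic acid induces the anterior ones first. Polycomb complexes hold silent clusters closed and MLL/Trithorax complexes keep active ones open, while CTCF and cohesin set the borders between the active and the silent stretch.

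The 250 bases before the RefSeq start sites of 3 of the genes are printed below because the start sites differ in base composition and in their reads: HOXD1 was the most abundant, HOXD4 was detected at a low level and HOXD8 was silent. Coordinates are on the plus strand of GRCh38.p14, with HOXD1 at chr2:176188418-176188667, HOXD4 at chr2:176151300-176151549 and HOXD8 at chr2:176129455-176129704. Each window ends at the base before the start of a transcript that the files list. Capitals mark matches, on either strand, to the CCAAT box (CCAAT), the E-box (CACGTG) or the GC box (GGGCGG).
HOXD1: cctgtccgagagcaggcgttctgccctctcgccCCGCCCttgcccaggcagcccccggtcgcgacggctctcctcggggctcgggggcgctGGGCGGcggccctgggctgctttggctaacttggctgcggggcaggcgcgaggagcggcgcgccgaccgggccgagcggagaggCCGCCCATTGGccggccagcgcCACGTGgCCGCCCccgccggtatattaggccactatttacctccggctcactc
HOXD4: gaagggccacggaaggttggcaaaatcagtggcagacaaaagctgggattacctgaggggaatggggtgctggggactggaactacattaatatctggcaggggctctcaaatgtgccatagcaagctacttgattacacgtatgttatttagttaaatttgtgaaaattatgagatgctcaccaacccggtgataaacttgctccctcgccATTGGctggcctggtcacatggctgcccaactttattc
HOXD8: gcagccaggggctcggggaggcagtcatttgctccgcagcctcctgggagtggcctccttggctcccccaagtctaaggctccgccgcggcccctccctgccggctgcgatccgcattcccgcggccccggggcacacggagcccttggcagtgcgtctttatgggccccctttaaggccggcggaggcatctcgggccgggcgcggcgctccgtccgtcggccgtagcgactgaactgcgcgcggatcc
The HOXD1 window held 31 CpG dinucleotides and was 74.8% G and C, and the HOXD8 window held 28 and was 72.4% G and C. The HOXD4 window held 4 and was 47.6% G and C, against a median of 11 CpG dinucleotides over 34788 RefSeq windows of the same length. The silent gene and the most abundant one were therefore both CpG-rich at their start, and HOXD4 was not.

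A CCAAT box was found once in the HOXD1 window, at position -69 counted from the start site, and once in the HOXD4 window, at position -38, and it occurs in 32.0% of all windows. The HOXD1 window also held 1 E-box, present in 6.3% of windows, and 4 GC boxes, a motif found in 42.6% of windows. In HOXD1, 1 GC box directly abuts the CCAAT box, and the 2 matches form a single run of capitals without sharing a base. The HOXD8 window held none of the 3 motifs, and neither the TATA box (TATAAA, 10.8% of windows) nor the AP-1 site (TGANTCA, 6.6% of windows) was found in any of the 3 windows. The RefSeq start of HOXD3 is not the start of any HOXD3 transcript in the files, so its window is not shown. A match describes letters in a window and was not tested as a binding site.

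HOXD1, the gene at the 3′ end of the cluster, is the retinoic acid-responsive member of paralog group 1 and in mice takes part in the wiring of pain-sensing neurons. It was lower by more than an order of magnitude in sorafenib-treated cells of both genotypes. Its single annotated transcript, HOXD1-201 (gene ENSG00000128645.15), lies on chromosome 2 of GRCh38 from 176188668 to 176190907 on the plus strand, with 2 exons and a spliced length of 1886 bases. In ARID1B-KO cells it was at 3.28, 2.39 and 2.91 CPM with sorafenib, against 55.9, 67.8 and 79.2 CPM with DMSO. In WT cells it was at 2.80, 2.30 and 2.68 CPM with sorafenib, against 39.7, 40.5 and 41.9 CPM with DMSO. Every sorafenib library lay below every DMSO library, and the 6 sorafenib libraries of the 2 genotypes filled nearly the same narrow range. The log2 fold change was -4.56 ± 0.15 (SE) in ARID1B-KO cells, which left 4.25% of the DMSO level, and -3.96 ± 0.15 in WT cells, which left 6.41%. These values rest on 189 reads with sorafenib and 4332 with DMSO in ARID1B-KO cells, and on 190 and 3142 reads in WT cells. Among the 12821 genes tested, 18 had a lower log2 fold change than HOXD1 in ARID1B-KO cells and 23 in WT cells.

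**Figure D1:**
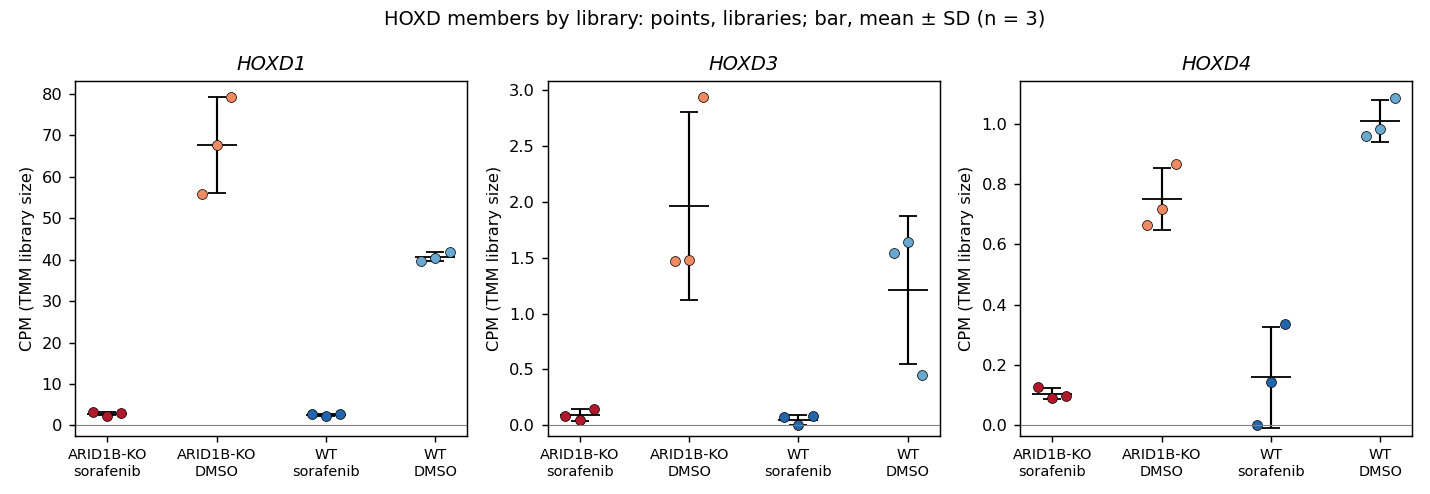
Levels of HOXD1, HOXD3 and HOXD4 in CPM (vertical axis, linear, a separate scale for each gene) in the 4 groups, with a point for each library and the mean ± SD over 3 libraries. For each of the 3 genes all sorafenib points lie below all DMSO points of the same genotype, and HOXD1 in DMSO lies higher in ARID1B-KO (55.9 to 79.2 CPM) than in WT (39.7 to 41.9 CPM).

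HOXD3, a homeodomain factor that shapes the upper cervical vertebrae in mice and induces integrins in human endothelial cells, was detected at a far lower level and moved the same way. Its gene (ENSG00000128652.12) was at 0.0842, 0.0459 and 0.148 CPM in ARID1B-KO cells with sorafenib, against 1.47, 1.48 and 2.93 CPM with DMSO. In WT cells it was at 0.0718, 0 and 0.0837 CPM with sorafenib, against 1.54, 1.64 and 0.450 CPM with DMSO. The sorafenib and DMSO libraries did not overlap in either genotype, although WT DMSO replicate 3 stood well below the other WT DMSO libraries. The reads numbered 6 with sorafenib and 125 with DMSO in ARID1B-KO cells, a ratio of 21.4-fold lower (95% counting interval 9.56 to 59.4). In WT cells they numbered 4 and 92, a ratio of 21.6-fold lower (8.17 to 81.1). The fitted log2 fold change was -4.34 ± 0.69 in ARID1B-KO cells and -4.34 ± 0.74 in WT cells.

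Of the 4 HOXD3 transcripts in the files, HOXD3-201 (chromosome 2, 176164077 to 176173102, plus strand) took all HOXD3 reads of both ARID1B-KO groups. It held 2, 1 and 3 reads with sorafenib and 31, 33 and 61 with DMSO. In WT cells it held 1, 0 and 2 reads with sorafenib and 42, 0 and 10 with DMSO. In WT DMSO replicate 2 all 35 HOXD3 reads were instead assigned to HOXD3-202, which starts upstream at 176160891 and shares exons with HOXD3-201. HOXD3-204, a transcript without a defined coding sequence, held 3 and 2 reads in WT DMSO replicates 1 and 3 and 1 read in WT sorafenib replicate 1. Such small numbers do not separate the transcripts, so the gene total is the steadier measure.

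HOXD4, a hindbrain and vertebral patterning gene whose neural enhancer answers to retinoic acid in mice, was lower with sorafenib too, by a smaller factor. Its single annotated transcript is HOXD4-201 (gene ENSG00000170166.6, chromosome 2, 176151550 to 176153226, plus strand). HOXD4 was at 0.126, 0.0917 and 0.0988 CPM in ARID1B-KO cells with sorafenib, against 0.666, 0.719 and 0.866 CPM with DMSO. In WT cells it was at 0, 0.144 and 0.335 CPM with sorafenib, against 0.958, 0.983 and 1.09 CPM with DMSO. The groups again did not overlap within a genotype. The reads numbered 7 with sorafenib and 48 with DMSO in ARID1B-KO cells (7.04-fold lower, 95% counting interval 3.17 to 18.5) and 11 and 78 in WT cells (6.67-fold lower, 3.53 to 13.9). The fitted log2 fold change was -2.76 ± 0.71 in ARID1B-KO cells and -2.66 ± 0.65 in WT cells, and without WT sorafenib replicate 3, which held 8 of the 11 WT sorafenib reads, the WT value was -3.87.

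HOXD8, the next gene towards the 5′ end, had 0 reads from its 4 transcripts in all 12 libraries, which allows a level of up to 0.103 to 0.148 CPM per library (3 counts, counting error only). The silence ran on through HOXD9, HOXD10, HOXD12, HOXD13 and EVX2, each at 0 reads in 12 libraries, and HOXD11 held 1 read, in WT DMSO replicate 1. By gene, reads were thus found from HOXD1 to HOXD4 in every group. Beyond HOXD4 lay only that HOXD11 read and the few WT reads of HOXD3-204, which starts at 176136612.

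The fold changes with sorafenib stand beside those of all genes as follows. All 3 members past the filter were lower in every sorafenib library than in any DMSO library, in both genotypes, which held for 27.1% of the genes tested in ARID1B-KO cells and 25.6% in WT cells. The edgeR test called 46.7% of all genes in ARID1B-KO cells and 35.4% in WT cells, in either direction, and the median log2 fold change over all genes was 0.01 and -0.01. The members chosen were known to be lower, so nothing is read from their count. The spread of the members' log2 fold changes, -4.56 to -2.76 in ARID1B-KO cells and -4.34 to -2.66 in WT cells, was wide against the SE of HOXD1 and less so against the SE of HOXD3 and HOXD4, which are about 0.7 in both. The libraries fall into a high and a low set by treatment, so likeness between members was read within each set of 6. The log2 CPM of HOXD1 and HOXD3 had a Pearson r of 0.750 over the 6 sorafenib libraries and 0.574 over the 6 DMSO libraries. For HOXD4 no r was positive. It was -0.112 and -0.632 with HOXD1, and -0.046 and -0.428 with HOXD3, in the same order of treatments. Each set pools both genotypes, so these values also hold any genotype difference of the members, such as that of HOXD1 in DMSO. With sorafenib a library held 0 to 3 HOXD3 reads and 0 to 8 HOXD4 reads, and the log2 CPM used a prior count of 2. The r values over the sorafenib libraries thus rest on differences of few reads and say little about likeness.

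Cell-type markers also moved with treatment. The summed level of 15 markers of other cell types was 578.9 to 715.7 CPM with sorafenib and 1894 to 2528 CPM with DMSO in ARID1B-KO cells, and 901.1 to 1017 CPM and 3677 to 4089 CPM in WT cells. Most of it was LYZ (lysozyme), at a mean of 506.1, 2018, 861.7 and 3868 CPM in the same order of groups, and PTPRC, COL1A2, KRT5 and TP63 were at 0 in all 12 libraries. Of the 6 markers past the filter, 2 were higher and 2 lower in each genotype, with a median log2 fold change of 0.20 in ARID1B-KO cells and 0.38 in WT cells. LYZ and the pericyte receptor gene PDGFRB (-1.63 in ARID1B-KO and -2.33 in WT cells) were lower, while smooth muscle actin ACTA2 (1.06 and 1.29) and the endothelial cadherin CDH5 (0.95 and 1.14) were higher. Under a length offset, which adds each gene's effective transcript length per library to the fit, the calls of CDH5 and PDGFRB were lost in both genotypes, and that of CDH5 was also lost without DMSO replicate 2 or 3 or sorafenib replicate 1 or 2 in ARID1B-KO cells, and without DMSO replicate 1 or sorafenib replicate 3 in WT cells. The summed level of the 12 hepatocyte markers was 121700 to 189600 CPM with sorafenib and 95580 to 115300 CPM with DMSO in ARID1B-KO cells, and 101100 to 110100 CPM and 83690 to 93730 CPM in WT cells. With sorafenib, 5 of the 12 were called higher, 1 lower and 6 not in ARID1B-KO cells. In WT cells 6 were called higher, 2 lower and 4 not. The part of the cell-type markers in the HOXD result was not tested. In bulk RNA, fewer cells that express a gene and less RNA per cell cannot be told apart.

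Without sorafenib, ARID1B-KO cells held more HOXD1 than WT cells. In DMSO, HOXD1 averaged 67.6 ± 11.6 CPM in ARID1B-KO cells and 40.7 ± 1.09 CPM in WT cells (SD, n = 3 each), 1.66-fold higher, a log2 fold change of 0.73 ± 0.12 (SE). The lowest ARID1B-KO library, at 55.9 CPM, lay above the highest WT library, at 41.9 CPM. The ARID1B-KO libraries were more scattered than the WT ones, and the mitochondrial share of their counts, 11.87%, 8.0% and 6.55% where HOXD1 was at 55.9, 67.8 and 79.2 CPM, ran in the opposite order. No other group had such an opposite order. In WT DMSO the share was 8.45%, 9.97% and 8.85% where HOXD1 was at 39.7, 40.5 and 41.9 CPM. The part of that share was not tested. HOXD4 differed in the other direction, at 0.750 ± 0.104 CPM in ARID1B-KO cells and 1.01 ± 0.0681 CPM in WT cells, with no overlap between the groups and a log2 fold change of -0.43 ± 0.56, smaller than its SE. HOXD3 averaged 1.96 ± 0.840 CPM in ARID1B-KO cells and 1.21 ± 0.660 CPM in WT cells, and the groups overlapped (log2 fold change 0.70 ± 0.52). The 2 members that did not overlap are read against 42.2% of all genes tested, and the edgeR test called 27.8% of all genes in this comparison.

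With sorafenib the ranges of the genotypes overlapped. HOXD1 averaged 2.86 ± 0.451 CPM in ARID1B-KO cells and 2.59 ± 0.262 CPM in WT cells, with a log2 fold change of 0.14 ± 0.17. HOXD3 (0.70 ± 0.97) and HOXD4 (-0.52 ± 0.82) also overlapped, on 6 and 7 reads in ARID1B-KO cells and 4 and 11 reads in WT cells. None of the 3 members was without overlap, where 42.7% of all genes tested were, and the edgeR test called 27.0% of all genes. A difference between genotypes in HOXD3 or HOXD4 under sorafenib was not detected on these few reads.

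The log2 fold change of HOXD1 with sorafenib was more negative in ARID1B-KO cells, with a difference of -0.60 ± 0.21, which is the ARID1B-KO response minus the WT response with an SE combined from both. The sorafenib levels nearly coincided, and the DMSO levels did not. The corresponding difference was -0.10 ± 0.96 for HOXD4, and for HOXD3 the responses were equal to 2 decimals with an SE of 1.01. Of all genes tested, 0.835% were called for this interaction by edgeR.

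Ordered by level, HOXD1 ran from ARID1B-KO DMSO through WT DMSO to the 2 sorafenib groups, whose ranges overlapped. HOXD3 had the same order of means, but the 2 DMSO groups overlapped, as did the 2 sorafenib groups. HOXD4 was highest in WT DMSO, then ARID1B-KO DMSO, and the 2 sorafenib groups overlapped. The deposited TPM, which are scaled for transcript length, allow the members to be compared with each other. HOXD1 averaged 0.914 TPM in ARID1B-KO sorafenib, 23.4 in ARID1B-KO DMSO, 0.765 in WT sorafenib and 12.2 in WT DMSO. HOXD3 averaged 0.0230, 0.514, 0.0188 and 0.297 TPM, and HOXD4 0.0528, 0.418, 0.0763 and 0.507 TPM, in the same order of groups. HOXD1 carried 81.9% to 96.7% of the summed TPM of the members in every library. In rank, 11228 of 16675 detected genes had a higher mean TPM than HOXD1 in ARID1B-KO sorafenib, against 4302 of 16202 in ARID1B-KO DMSO. The numbers were 11471 of 16301 in WT sorafenib, against 6071 of 16473 in WT DMSO.

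Set against the other HOX genes, HOXD1 was the most abundant one in DMSO, and with sorafenib it stood below 4 others in ARID1B-KO cells and below 3 in WT cells. There are 39 HOX genes in the files, of which 9 passed the filter, 5 of 11 in the HOXA cluster, 0 of 10 in HOXB, 1 of 9 in HOXC and 3 of 9 in HOXD, and 17 had no reads at all. In ARID1B-KO cells with sorafenib, HOXD1 at 0.914 TPM was below HOXA5 (5.77 TPM), HOXC9 (3.94 TPM), HOXA3 (2.67 TPM) and HOXA4 (2.67 TPM), whereas with DMSO, at 23.4 TPM, it was above them all, the next being HOXA5 at 3.98 TPM. In WT cells with sorafenib, HOXD1 at 0.765 TPM was below HOXA4 (4.07 TPM), HOXA5 (4.05 TPM) and HOXA3 (3.21 TPM), whereas with DMSO, at 12.2 TPM, it was above them all, the next being HOXA4 at 3.99 TPM. TPM and CPM did not move alike for every gene. HOXA5 in WT cells was at 4.05 TPM with sorafenib and 1.78 TPM with DMSO, but at 4.46 and 4.15 CPM. These ranks therefore describe the TPM only.

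**Figure D2:**
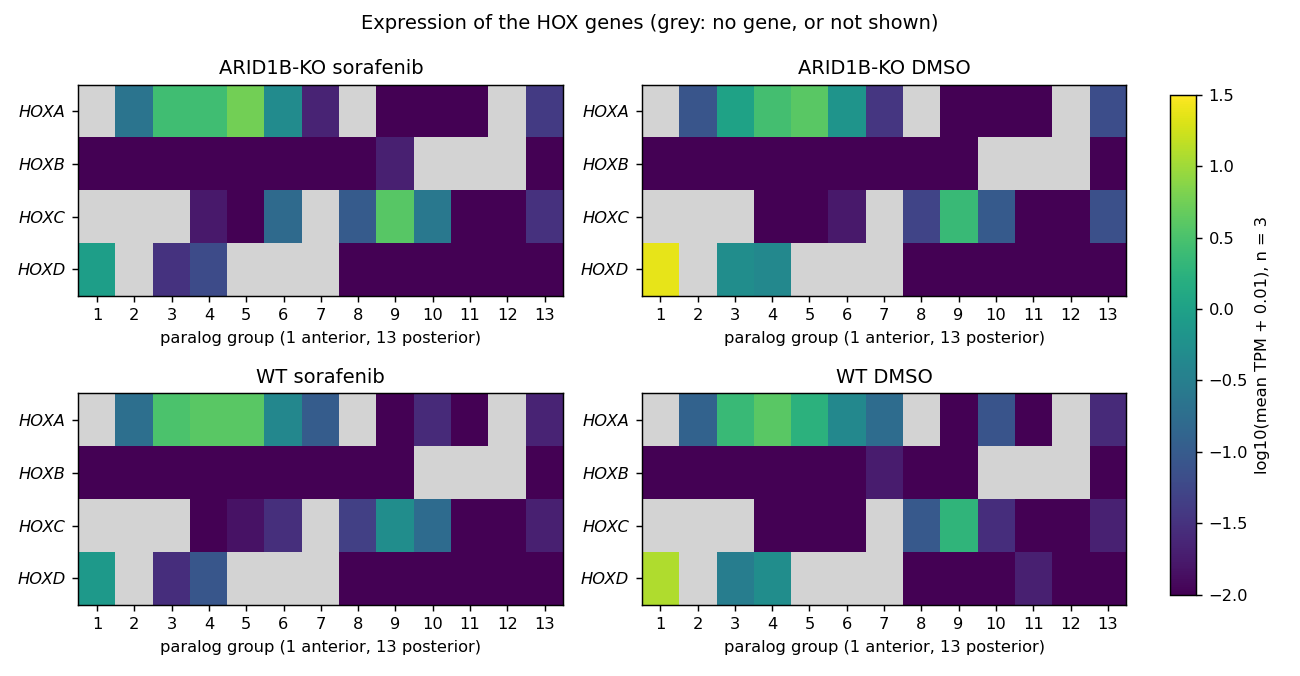
Mean deposited TPM over 3 libraries of the HOX genes, as log10 of TPM + 0.01 (colour), by cluster (rows) and paralog group from anterior to posterior (columns), with a panel for each group and grey where no gene exists or none is shown. HOXD1 is the brightest cell in both DMSO panels (23.4 TPM in ARID1B-KO, 12.2 TPM in WT) and dims in both sorafenib panels, while the posterior HOXD genes stay at the floor throughout.

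None of the 6 other HOX genes past the filter was called lower with sorafenib, except under the length offset, where HOXC9 was called lower in WT cells (log2 fold change -1.83, adjusted p = 0.0188), at a mean of 0.517 TPM with sorafenib and 1.915 TPM with DMSO. HOXA3, an anterior gene needed for the thymus and parathyroid in mice, rose in both genotypes, with a log2 fold change of 0.97 in ARID1B-KO cells (adjusted p = 0.000169) and 0.61 in WT cells (adjusted p = 0.00527), by the edgeR test. The WT call was lost under the length offset (0.51, adjusted p = 0.211). HOXA2, HOXA4, HOXA5, HOXA6 and HOXC9 were not called in either genotype, with log2 fold changes of -0.12 to 1.80 in ARID1B-KO cells and -0.25 to 0.54 in WT cells. DESeq2 called HOXA5 (0.54, adjusted p = 0.0464) and HOXC9 (0.60, adjusted p = 0.0415) higher in ARID1B-KO cells. Between genotypes, HOXC9 was higher in ARID1B-KO cells with sorafenib (log2 fold change 1.52, adjusted p = 0.000670, edgeR), HOXA4 was lower there (-0.69, adjusted p = 0.0105, but 0.0519 without WT sorafenib replicate 2 and 0.0932 under the length offset), and HOXA3 was lower in ARID1B-KO cells with DMSO (-0.67, adjusted p = 0.00498). None of the 6 was called for the interaction. Differences between these genes and the HOXD members were not tested.

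**Figure D3:**
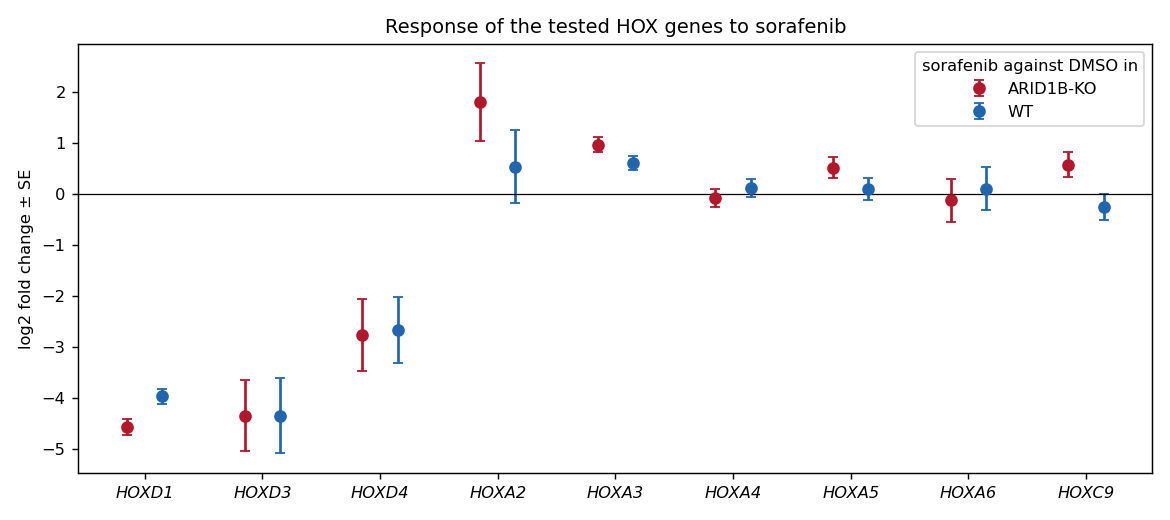
Log2 fold change of sorafenib against DMSO ± SE (vertical axis) for the 9 HOX genes past the filter, in ARID1B-KO (red) and WT (blue). The 3 HOXD genes lie between -4.56 and -2.66, and the HOXA genes and HOXC9 lie between -0.25 and 1.80.

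The genes that flank the cluster gave the comparison along the chromosome. Within 1 Mb of the cluster, 32 genes are annotated, 13 of them have transcripts in the files and 4 passed the filter. MTX2, which encodes a metaxin of the mitochondrial outer membrane and lies 78.5 kb beyond HOXD1, was lower with sorafenib in both genotypes. It was at 37.2, 43.9 and 49.6 CPM with sorafenib and 76.5, 82.8 and 96.8 CPM with DMSO in ARID1B-KO cells, and at 33.3, 30.9 and 31.1 CPM with sorafenib and 74.6, 55.9 and 53.6 CPM with DMSO in WT cells. The log2 fold change was -0.97 ± 0.14 in ARID1B-KO cells (SE, adjusted p = 9.62e-05, edgeR) and -0.95 ± 0.14 in WT cells (adjusted p = 0.000188). MTX2 was also higher in ARID1B-KO than in WT cells, by 0.47 ± 0.14 in DMSO (adjusted p = 0.0203) and 0.45 ± 0.14 in sorafenib (adjusted p = 0.0285), on the log2 scale. The DMSO call was lost without WT DMSO replicate 2 or 3 or ARID1B-KO DMSO replicate 3 (0.37 to 0.41, adjusted p = 0.0775 to 0.0893), the sorafenib call without any 1 of the WT sorafenib libraries or ARID1B-KO sorafenib replicate 2 or 3 (0.35 to 0.49, adjusted p = 0.0559 to 0.102), and both under the length offset (adjusted p = 0.0825 and 0.0748).

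LNPK, whose product shapes junctions of the endoplasmic reticulum and which lies 89.9 kb beyond the silent 5′ end, was lower with sorafenib by less, at -0.38 ± 0.10 in ARID1B-KO cells (adjusted p = 0.00887, edgeR) and -0.40 ± 0.10 in WT cells (adjusted p = 0.00864; -0.29 and 0.123 under the length offset). It was not called between genotypes, at -0.12 in DMSO and -0.10 in sorafenib. ATP5MC3, a subunit of ATP synthase at 911.0 kb, was called in no comparison by edgeR. DESeq2 called it higher in ARID1B-KO than in WT cells with sorafenib (0.35, adjusted p = 0.0421). ATF2, a bZIP transcription factor at 924.3 kb, was not called with sorafenib and was higher in ARID1B-KO than in WT cells, by 0.37 in DMSO (adjusted p = 0.0190, edgeR) and 0.33 in sorafenib (adjusted p = 0.0352). The DMSO call of ATF2 was lost without WT DMSO replicate 2 or 3 or ARID1B-KO DMSO replicate 1 or 3 (0.29 to 0.36, adjusted p = 0.0516 to 0.0878), and the sorafenib call without WT sorafenib replicate 2 or 3 or ARID1B-KO sorafenib replicate 2 or 3 (0.25 to 0.33, adjusted p = 0.0654 to 0.146). None of the 4 was called for the interaction. Both nearest genes past the filter were lower with sorafenib, with changes smaller than those of the HOXD members, and the difference itself was not tested. Called lower with sorafenib were 2 of the 4 in each genotype, against 3035 of all 12821 genes tested in ARID1B-KO cells and 2304 in WT cells. Called higher in ARID1B-KO than in WT cells were 2 of the 4 under either treatment, against 1829 genes in DMSO and 1695 in sorafenib. Nothing is read from these counts.

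**Figure D4:**
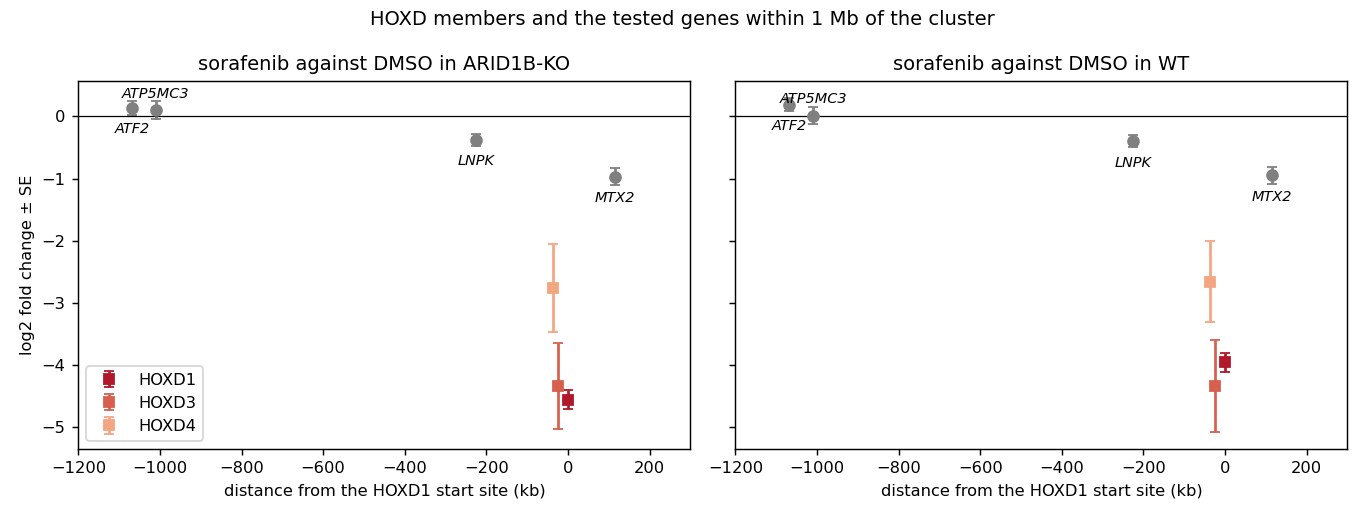
Log2 fold change of sorafenib against DMSO ± SE (vertical axis) by distance from the HOXD1 start site in kb (horizontal axis), in ARID1B-KO (left) and WT (right), for HOXD1, HOXD3, HOXD4 (squares) and the 4 tested genes within 1 Mb (grey circles). The squares lie between -4.56 and -2.66, MTX2 and LNPK lie between -0.97 and -0.38, and ATP5MC3 and ATF2 lie near 0.

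The HOXD cluster also holds the antisense and noncoding genes HAGLR, HAGLROS, HOXD-AS2 and MIR10B. Their transcripts are not among those read here, so they were not analysed. HAGLR-214 starts 77 bases upstream of HOXD1 on the other strand, and exons of HAGLR overlap exons of HOXD1 and HOXD3, which also overlap MIR7704, ENSG00000279160 or ENSG00000272729. Exons of HOXD3-204 overlap exons of HOXD-AS2. No source read here says whether the authors' quantification used strand. Reads of HOXD1 and HOXD3 therefore cannot be told apart from reads of HAGLR or HOXD-AS2 where the exons overlap. HOXD4-201 overlaps no exon of another gene.

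Genes whose levels ran most like each member were taken as the 5 with the highest Pearson r of log2 CPM over the 12 libraries. For HOXD1 these were MIXL1 (r = 0.992), a homeobox factor of mesendoderm, RRP9 (0.991), a U3 snoRNP protein, TRIB1 (0.989), a pseudokinase, GTPBP4 (0.989), a GTPase of ribosome assembly, and HIF1A (0.989), the oxygen-regulated transcription factor. MIXL1 was at a mean of 7.69 CPM with sorafenib and 51.4 CPM with DMSO in ARID1B-KO cells, and 8.03 CPM and 45.6 CPM in WT cells, a log2 fold change of -2.74 and -2.50. For HOXD3 they were DCAF13 (0.976), TFB1M (0.975), MPC1 (0.975), NDUFAF4 (0.973) and SEH1L (0.973). For HOXD4 they were TELO2 (0.962), YARS2 (0.961), PRR7 (0.960), GSTO2 (0.947) and SMG9 (0.946). The lists of the 3 members share no gene, and all 15 genes had a negative log2 fold change with sorafenib in both genotypes. They were picked for a high r over libraries that split by treatment, so this shared direction follows from the choice. Within a treatment the r of the first 5 genes with HOXD1 was -0.076 (MIXL1) to 0.578 (GTPBP4) over the 6 sorafenib libraries and 0.632 (HIF1A) to 0.941 (GTPBP4) over the 6 DMSO libraries.

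Genes known to act on HOX clusters or with HOX proteins were counted from lists of known regulators and partners, beside the 46.7% (sorafenib, ARID1B-KO), 35.4% (sorafenib, WT), 27.8% (genotype, DMSO) and 27.0% (genotype, sorafenib) of all genes called by edgeR. Among Polycomb genes, 33 of 34 passed the filter. With sorafenib, 4 were higher and 12 lower in ARID1B-KO cells (median log2 fold change -0.09), and 2 were higher and 7 lower in WT cells (median -0.15). KDM2B, which brings a variant Polycomb complex to CpG islands, fell by 0.81 in ARID1B-KO cells (adjusted p = 3.60e-06) and by 0.40 in WT cells (adjusted p = 0.00138). PHC2, a subunit that clusters Polycomb complexes, fell by 0.63 in ARID1B-KO cells (adjusted p = 2.81e-05) and by 0.34 in WT cells (adjusted p = 0.00371). EZH2, the H3K27 methyltransferase, fell by 0.62 in ARID1B-KO cells (adjusted p = 0.000767) and by 0.49 in WT cells (adjusted p = 0.00529). Between genotypes, 2 were higher and 2 lower in DMSO and 1 higher and 3 lower in sorafenib, the lower ones including KDM2B in sorafenib (-0.53, adjusted p = 0.000318). Under the length offset, 1 was higher and 8 lower with sorafenib in ARID1B-KO cells and 0 higher and 7 lower in WT cells. As libraries were left out, the lower ones with sorafenib numbered 10 to 13 and 7 to 8, while the genotype counts in DMSO ran from 0 higher and 0 lower, without WT DMSO replicate 3, up to 3 and 3, without WT DMSO replicate 1.

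All 22 genes of MLL/Trithorax complexes and KDM6 demethylases passed the filter, with 2 higher and 7 lower in ARID1B-KO cells under sorafenib (median -0.10) and 1 higher and 2 lower in WT cells (median -0.06). The core subunit ASH2L fell by 0.51 in ARID1B-KO cells (adjusted p = 0.000110, edgeR) and by 0.40 in WT cells (adjusted p = 0.00113), and its partner WDR5 fell by 0.54 (adjusted p = 0.000315) and by 0.32 (adjusted p = 0.0123). KDM6A, which removes H3K27 methylation, rose by 0.67 in ARID1B-KO cells (adjusted p = 0.00315) and by 0.72 in WT cells (adjusted p = 0.00252). Under the length offset the WT calls of ASH2L (-0.37, adjusted p = 0.0642), WDR5 (-0.28, 0.0663) and KDM6A (0.24, 0.509) were lost, and that of WDR5 was also lost without WT DMSO replicate 3 (0.0567) or WT sorafenib replicate 3 (0.0645). Between genotypes, 4 were higher and 1 lower in DMSO, and 0 were higher and 3 lower in sorafenib. The length offset gave 1 higher and 6 lower with sorafenib in ARID1B-KO cells, 0 and 1 in WT cells, and 0 and 0 for genotype in sorafenib, where leaving out libraries gave 1 to 4 lower, the least without WT or ARID1B-KO sorafenib replicate 2. Of 13 CTCF and cohesin genes, all past the filter, 1 was higher and 5 lower in ARID1B-KO cells under sorafenib (median -0.16), and 1 was higher and 2 lower in WT cells (median -0.12). CTCF itself fell by 0.42 in ARID1B-KO cells (adjusted p = 0.000523) and was at -0.12 in WT cells (adjusted p = 0.240), and the difference between genotypes was not called. The cohesin acetyltransferase ESCO2 fell by 0.96 (adjusted p = 9.55e-05) and by 0.39 (adjusted p = 0.0380). The WT call of ESCO2 was lost under the length offset (-0.22, adjusted p = 0.512), with the replicate block (-0.39, 0.0533) and without WT DMSO replicate 1 or 3 or WT sorafenib replicate 2 or 3 (-0.42 to -0.27, 0.0571 to 0.162). Between genotypes, 2 of the 13 were higher and 0 lower in DMSO, and 0 were higher and 2 lower in sorafenib. The WT count with sorafenib was 0 higher and 0 lower under the length offset and without WT sorafenib replicate 3.

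Of 26 retinoic acid receptors, enzymes and targets, 14 passed the filter, and 3 were higher and 1 lower with sorafenib in each genotype (median 0.13 in ARID1B-KO cells and 0.21 in WT cells). RXRA, the shared receptor partner, rose by 0.85 in ARID1B-KO cells (adjusted p = 1.76e-05, edgeR) and by 1.04 in WT cells (adjusted p = 5.50e-06). ALDH1A1, which makes retinoic acid, rose by 0.87 (adjusted p = 1.98e-05) and by 0.88 (adjusted p = 3.00e-05). FABP5, which carries retinoic acid and other lipids, fell by 1.99 (adjusted p = 4.72e-07) and by 1.71 (adjusted p = 2.44e-06). Between genotypes 3 were higher and 3 lower under either treatment, among them TGM2, a transglutaminase induced by retinoic acid, at -1.32 in DMSO (adjusted p = 3.16e-05). As libraries were left out, 1 to 3 were higher and 2 to 4 lower in DMSO, and 1 to 3 higher and 2 to 3 lower in sorafenib.

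Of 18 HOX cofactors of the TALE class and their regulators, 9 passed the filter. With sorafenib, 1 was higher and 2 lower in ARID1B-KO cells (median 0.05), and 1 was higher and 0 lower in WT cells (median 0.14). PBXIP1, which binds and restrains PBX proteins, rose by 2.03 in ARID1B-KO cells (adjusted p = 5.15e-05, edgeR) and by 1.35 in WT cells (adjusted p = 0.00113), and IRX3 fell by 0.95 in ARID1B-KO cells (adjusted p = 0.000157). The direct HOX partners PBX2, PBX3, MEIS1 and MEIS2 were not called with sorafenib by edgeR, at 2.55, 0.22, 0.38 and 0.05 in ARID1B-KO cells and -0.82, 0.21, 0.26 and 0.29 in WT cells. MEIS2 was called higher in WT cells by DESeq2 (0.30, adjusted p = 0.0338) and with its size factors (0.30, 0.0426). It was also called there without ARID1B-KO DMSO replicate 1 (0.30, 0.0461) or WT sorafenib replicate 2 (0.39, 0.0192). PBX2 in WT cells was unstable, at 7.73 (adjusted p = 0.03) without WT DMSO replicate 3. Between genotypes 3 were higher and 1 lower in DMSO, with IRX3 at 1.09 (adjusted p = 0.000128), and 0 higher and 2 lower in sorafenib. Without any 1 library the DMSO counts were 1 to 3 higher and 1 to 3 lower. For the interaction, edgeR called 0 of the 101 genes past the filter in these lists, the other HOX clusters and the flanking genes, while 13 had an unadjusted p under 0.05 and DESeq2 called 3, which were KDM2B, TGIF2 and IRX3.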

How the data were processed

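RNA was measured in 12 HepG2 libraries, grouped by their titles. Per the file headers, the authors deposited a Salmon table for each library, with an estimated count, an effective length and a TPM value per transcript. These deposited estimated counts are fractional (10.2% of values above 0 are whole to within 1e-06) and not normalized, and the deposited TPM are scaled within a library and for length. Salmon and DESeq2 1.46.0 are named in the submitters' processing notes, and Ensembl 109 on GRCh38 in the design text. Strand settings are not given in the sources used here.

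Of 177456 transcripts, 165533 (93.3%) matched GENCODE 44 by unversioned identifier, and the rest held 2.87% to 3.20% of a library's counts. Counts were summed to 35810 genes and rounded. All libraries entered a single edgeR 4.0.16 quasi-likelihood fit (R 4.3.3, TMM, filterByExpr, robust), which tested 12821 genes in 5 contrasts, with a common biological coefficient of variation of 0.152. Genes were called at a Benjamini-Hochberg adjusted p under 0.05 over all genes tested. Each adjusted p is from this fit, except where DESeq2, another alternative or a left-out library is named beside it. The SE was taken as |log2 fold change| over the root of the F statistic. CPM use the TMM library size. Counting intervals are exact and, like the limit of 3 counts for a gene at 0, cover counting error only, since PCR copies were not separated. The procedure was tested on simulated counts.

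Replicates differed by more than sampling noise, and libraries with the same replicate number did not deviate together (18 correlations, -0.163 to 0.184), so no pairing was used. The members, the gene lists and the rule for named genes were chosen with earlier results of these data known. The rule named the 4 members, ARID1B, HOXD cluster genes with reads, tested genes within 1 Mb, up to 4 called genes with the smallest adjusted p per list and comparison, and the 5 best-correlated genes per member. Part of those are printed, some genes are not reported here, and list genes that were not called and the other HOX genes were added after their values were seen. Alternatives were DESeq2 1.42.0 and its size factors, no filter, a length offset, a replicate block, deposited TPM with a pseudocount of 0.1 or 1, leaving out transcripts that overlap another gene, and leaving out each library.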

Additional observations from a re-analysis of the deposited data

How the results depend on the processing

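HOXD1, HOXD3 and HOXD4 stayed lower with sorafenib in both genotypes under every alternative run except leaving out transcripts that overlap another gene, which could not test this. On log2(TPM + 1) the change with sorafenib in ARID1B-KO and in WT was -3.64 and -2.91 for HOXD1, -0.55 and -0.34 for HOXD3 and -0.43 and -0.49 for HOXD4. On log2(TPM + 0.1) it was -2.25 and -1.69 for HOXD3 and, in ARID1B-KO, -1.75 for HOXD4. These pseudocounts are near or above the levels, which shrinks the change. Leaving out each library gave -4.66 to -4.42 and -4.02 to -3.89 for HOXD1, -4.79 to -3.92 and -4.74 to -3.87 for HOXD3, and -2.89 to -2.63 and -3.87 to -2.03 for HOXD4, in the same order of genotypes. Leaving out transcripts that overlap another gene removed every HOXD1 and HOXD3 transcript with reads, so it gave no value for them, and left HOXD4 as it was. Between genotypes, HOXD4 in sorafenib ranged from -1.15 to 0.68 as libraries were left out.

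Over all genes, a length offset called 2870 genes with sorafenib in WT, 2190 for genotype in DMSO, 2049 for genotype in sorafenib and 2 for the interaction, and the cause was not tested. It turned the sign of genotype differences for HCFC1 (0.02) and NCOA6 (0.21) in sorafenib and for PKNOX1 (-0.03) and TGIF2 (-0.05) in DMSO. For the interaction, DESeq2 called 584 genes and leaving out a library left 5 to 138, against 107. The replicate block, used although the numbers do not pair the libraries, called 5818 and 4362 genes with sorafenib in ARID1B-KO and WT, 3381 and 3271 for genotype in DMSO and sorafenib, and 19 for the interaction. Leaving out each library gave 5143 to 6076 and 3587 to 4762 calls with sorafenib in ARID1B-KO and WT, and 2529 to 3851 and 2479 to 3596 for genotype in DMSO and sorafenib. Depth limits HOXD3 and HOXD4, whose sorafenib groups held 4 to 11 reads.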

Other observations

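Several HOX genes outside the HOXD cluster held reads but did not pass the filter on low counts, and are given as values. HOXC6, a thoracic-level gene, held 16 reads over the 12 libraries, with a mean of 0.154 TPM in ARID1B-KO sorafenib, 0.00731 in ARID1B-KO DMSO, 0.0199 in WT sorafenib and 0 in WT DMSO. HOXA7 held 38 reads, with 0.0124, 0.0255, 0.0950 and 0.163 TPM in the same order of groups. HOXC10 held 21 reads, with 0.240, 0.0873, 0.157 and 0.0188 TPM. These genes were chosen after their values were seen and were not tested.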
